A study of Mus musculus with 7 samples.

Results

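Tceal8 and 7 genes related to it (Tceal1, Tceal3, Tceal5, Tceal9, Bhlhb9, Bex2 and Bex4) were examined in mouse liver to see whether the low level of Tceal8 in TET1 KO livers was shared within its gene family. These 8 genes, of 51426 in the count tables, were chosen by name as relatives of Tceal8. Tceal8 itself was chosen for its difference between TET1 KO and WT in these same data. Its values are therefore a description, with no test. RNA-Seq counts came from livers of male mice labelled C57BL/6J, of which 3 were WT and 4 were TET1 whole-body knockout (TET1 KO). Mice of both genotypes ate a high-fat diet (HFD) over 16 weeks, begun when they were 8 weeks old, and no library came from normal chow. The deletion was carried in the whole body and not in hepatocytes alone. The study describes whole-body knockouts of more than a single origin. The sample labels name none, while the genotype notation in its figure legends is that of the null allele, whose source strain the methods give as mixed B6;129S4.

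The Tceal genes (transcription elongation factor A-like) and the Bex genes (brain-expressed X-linked) encode small proteins and form a cluster on the X chromosome of placental mammals, together with the Armcx and Gprasp genes. Tceal proteins are named for their resemblance to TFIIS, the factor that helps RNA polymerase II resume transcription after it has stalled, while Bex proteins are known mainly as adaptors in neurotrophin and cell cycle signalling. Most of these genes are known for expression in the brain and little is known of them in liver. TET1 oxidises 5-methylcytosine at CG dinucleotides, a first step in the removal of DNA methylation.

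The sequences upstream of the 3 members whose levels were lower in every TET1 KO liver than in any WT liver are given first, with every CG in capitals, since CG is the dinucleotide on which TET1 acts. They are the 250 bases before a transcript start in RefSeq (GRCm38.p6), 5′ to 3′ on the gene's strand, at chrX:136172252-136172501 on the minus strand for Tceal8, chrX:135885601-135885850 on the plus strand for Bhlhb9 and chrX:136244830-136245079 on the plus strand for Tceal9. For Bhlhb9 this start lies inside the RefSeq span of the gene, which begins further upstream.
Tceal8: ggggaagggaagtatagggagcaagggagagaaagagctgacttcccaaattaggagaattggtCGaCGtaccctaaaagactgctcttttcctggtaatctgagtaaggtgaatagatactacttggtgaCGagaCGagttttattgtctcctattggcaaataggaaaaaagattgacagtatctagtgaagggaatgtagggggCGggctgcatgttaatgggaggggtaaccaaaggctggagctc
Bhlhb9: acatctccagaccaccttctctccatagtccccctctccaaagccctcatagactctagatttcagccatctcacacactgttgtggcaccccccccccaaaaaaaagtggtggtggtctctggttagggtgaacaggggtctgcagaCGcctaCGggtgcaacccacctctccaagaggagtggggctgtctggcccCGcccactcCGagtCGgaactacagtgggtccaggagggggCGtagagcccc
Tceal9: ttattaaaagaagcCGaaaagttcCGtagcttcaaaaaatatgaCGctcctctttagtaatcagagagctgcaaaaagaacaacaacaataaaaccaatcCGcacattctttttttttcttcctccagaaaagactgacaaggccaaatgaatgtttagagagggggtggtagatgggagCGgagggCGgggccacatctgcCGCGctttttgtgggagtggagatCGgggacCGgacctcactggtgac

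The Tceal8 window held 5 CG, that of Bhlhb9 6 and that of Tceal9 10, against a median of 6 over 32851 windows of the same length. At least as many CG were present in 55.6% of all windows for Tceal8, in 50.4% for Bhlhb9 and in 37.8% for Tceal9. Counts of CG in the 3 windows were thus common among all windows. Methylation was not measured in these libraries.

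The coding sequences decide how well reads can be told apart between relatives. The first 120 coding bases of Tceal8 and of 3 relatives are shown, with capitals marking bases inside a run of 20 that also occurs in the coding sequence of another of the 4 genes.
Tceal8: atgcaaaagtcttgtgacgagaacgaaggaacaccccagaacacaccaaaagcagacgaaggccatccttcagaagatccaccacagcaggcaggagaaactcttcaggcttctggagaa
Tceal3: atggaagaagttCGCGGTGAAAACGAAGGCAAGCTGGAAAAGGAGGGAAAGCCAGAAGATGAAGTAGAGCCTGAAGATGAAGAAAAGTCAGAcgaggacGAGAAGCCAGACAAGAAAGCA
Tceal5: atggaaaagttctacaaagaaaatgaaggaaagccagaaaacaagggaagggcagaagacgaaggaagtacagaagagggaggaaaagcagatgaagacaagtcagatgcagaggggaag
Tceal6: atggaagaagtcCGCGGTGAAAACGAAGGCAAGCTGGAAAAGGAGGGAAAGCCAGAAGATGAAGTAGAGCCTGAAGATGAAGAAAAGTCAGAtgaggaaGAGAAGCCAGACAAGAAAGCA

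Tceal8 shared no such run with the other genes shown, whereas 101 of the 120 bases of Tceal3 and of Tceal6 lay in shared runs. Over whole coding sequences Tceal3 was 98.2% identical to Tceal6 and 87.7% to Tceal5, and Bex2 was 91.5% identical to Bex1. Tceal8 had its highest identity with Tceal9, at 55.1% of aligned columns. Its identity with Bhlhb9 is not given, since the difference in coding length sets a low upper limit to it. Among runs of 50 bases over annotated protein-coding transcripts, Tceal8, Tceal9, Tceal1 and Bhlhb9 shared 0% with any other protein-coding gene. Pseudogenes and noncoding transcripts were not searched. The share was 30.2% for Tceal3, 25.4% for Tceal5, 21.3% for Bex2 and 25.8% for Bex4, so the counts of these 4 genes are uncertain where reads could be split between copies. A structural feature was common to all 8 members: every coding transcript carried its coding sequence in a single exon, as did 14.2% of 20920 coding genes. It was also found in 5 of the 5 other Tceal and Bex genes and in 6 of the 9 Armcx, Armc10 and Gprasp genes.

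The libraries held 15005277 to 22746138 counts. For Tet1, the targeted gene, 1 to 4 reads were counted per library in either genotype, too few to check the labels. The summed level of 9 hepatocyte markers was 75427 to 94280 CPM (counts per 1000000 of a scaled library) in WT and 85482 to 95369 CPM in TET1 KO, so that all 7 libraries carried the labelled tissue. Libraries were scaled by the trimmed mean of M-values (TMM). A gene was called where edgeR's quasi-likelihood test gave a Benjamini-Hochberg adjusted p under 0.05 over all 14754 tested genes. In this comparison 2.02% of the tested genes were called, 1.15% as lower in TET1 KO and 0.874% as higher. With scaling by library size only the split was 2.11% lower and 0.725% higher.

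Tceal8 and Bhlhb9 were the members called, both lower in TET1 KO, and Tceal9 was lower by a smaller amount that missed the threshold. Of the 8 members, 4 passed the filter on low counts and 2 of these were called lower. The share of all tested genes called lower was 1.15%, and Tceal8 had been chosen in this same contrast. Setting Tceal8 aside, 3 of the other 7 members were tested and 1, Bhlhb9, was called. The remaining 4 members had at most 10 counts in any library. In bulk liver, fewer cells of a type and less RNA per cell cannot be told apart.

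**Figure D1:**
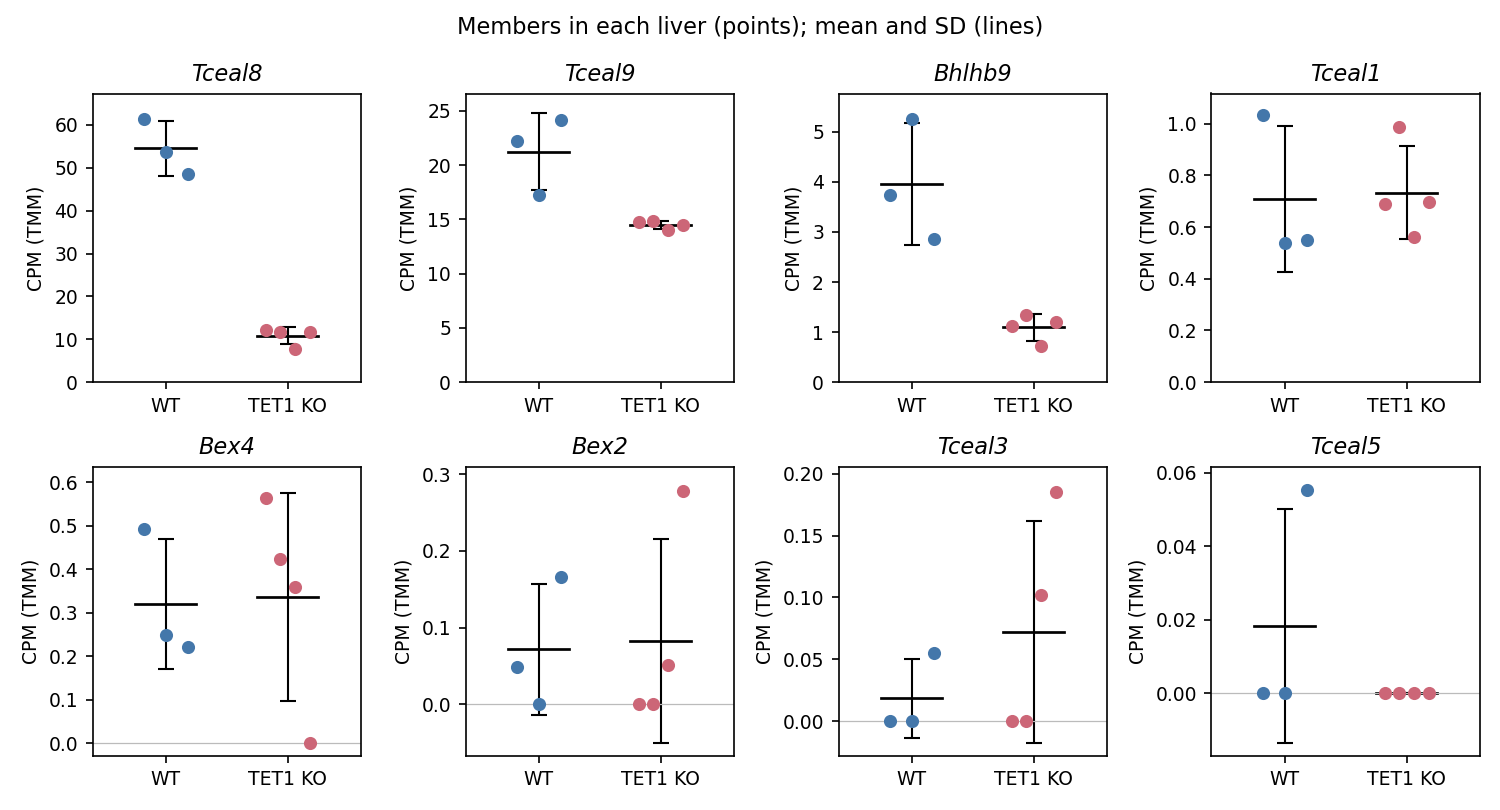
TMM-scaled CPM of the 8 members in each liver (points, 3 WT in blue and 4 TET1 KO in red), with the group mean and SD as black lines and a separate vertical axis for each gene. Tceal8, Tceal9 and Bhlhb9 were lower in all 4 TET1 KO livers than in any WT liver, whereas the groups of the other 5 members overlapped.

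Tceal8 (ENSMUSG00000051579, chrX:136168984-136172251, minus strand, GRCm38.p6) encodes a small TFIIS-like nuclear protein. In WT it had 1248, 1293 and 880 counts, and in TET1 KO 193, 165, 153 and 250. Every TET1 KO liver lay far below the lowest WT liver, and the groups did not overlap. The mean level was 54.5 ± 6.48 CPM in WT (SD, n = 3) and 10.8 ± 1.98 CPM in TET1 KO (SD, n = 4), 5.06-fold higher in WT. The fitted log2 fold change of TET1 KO against WT was -2.34 with a standard error of 0.17. Within TET1 KO, replicates 1, 2 and 4 had 12.1, 11.6 and 11.6 CPM while replicate 3 was lower, at 7.83 CPM. Without that replicate the log2 fold change was -2.23.

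Bhlhb9 (ENSMUSG00000072964, chrX:135841639-135891081, plus strand, GRCm38.p6), also known as p60TRP or Gprasp3, belongs to the Gprasp genes, whose proteins bind G protein-coupled receptors, and carries armadillo-like repeats. It had 76, 127 and 52 counts in WT and 18, 19, 14 and 26 counts in TET1 KO. The lowest WT liver thus had more counts than the highest TET1 KO liver, and replicate 2 was the highest of the WT livers. Mean levels were 3.96 ± 1.21 CPM in WT (SD, n = 3) and 1.10 ± 0.269 CPM in TET1 KO (SD, n = 4). The log2 fold change was -1.87 (SE 0.29, 95% interval -2.51 to -1.22), with an adjusted p of 0.0145 by edgeR and 3.99e-05 by DESeq2. Without WT replicate 2 the log2 fold change was -1.61 and edgeR's adjusted p 0.0905, in a fit that called 37 genes in all, against 298 with every library. The RefSeq span of Bhlhb9 overlaps that of Gprasp2 by 3092 bases on the same strand, and Gprasp2 had 1 to 10 counts per library.

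Tceal9 (ENSMUSG00000042712, chrX:136245080-136247139, plus strand, GRCm38.p6), formerly Wbp5, encodes a protein first described as binding WW domains. Its counts were 452, 417 and 438 in WT and 235, 211, 274 and 312 in TET1 KO. In CPM the WT livers had 22.2, 17.3 and 24.2 and the TET1 KO livers 14.7, 14.9, 14.0 and 14.5, without overlap and with little spread in TET1 KO. The log2 fold change was -0.55 (SE 0.15, 95% interval -0.87 to -0.23). This was larger than the spread between replicates at an unadjusted p of 0.00326 by edgeR, but the adjusted p of 0.0695 missed the threshold. DESeq2 gave an adjusted p of 0.0197, and called 3 members in all, in a test that called 9.02% of 14701 genes and 4.75% as lower. Non-overlapping groups with lower values in TET1 KO were found for 2 of the 3 tested members besides Tceal8 and for 10.8% of all tested genes.

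Tceal1 (ENSMUSG00000049536, chrX:136707982-136709873, plus strand, GRCm38.p6) encodes a nuclear phosphoprotein that modulates transcription. It had 21, 13 and 10 counts in WT and 11, 14, 11 and 15 in TET1 KO. The groups overlapped, with WT replicate 1 the highest of the 7 libraries. Tceal1 overlaps the lncRNA gene Gm39536 on the opposite strand by 805 bases, so reads of the pair cannot be told apart if strand was not used in counting. The log2 fold change was 0.03 (SE 0.40, 95% interval -0.85 to 0.91), with an adjusted p of 0.966 by edgeR. Its sign was negative under scaling by library size only (-0.061) and without WT replicate 2 (-0.16), WT replicate 3 (-0.12) or TET1 KO replicate 2 (-0.14). A fall as large as that of Tceal8 lay outside this interval, but changes of up to about the interval's bounds were not detectable at this depth.

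The last 4 members were scarcely detected. Bex4 (chrX:136138996-136140443, plus strand) had 10, 6 and 4 counts in WT and 9, 6, 7 and 0 in TET1 KO, and its span overlaps that of Nxf3, which had at most 2 counts, by 584 bases. Bex2 (chrX:136066565-136068236, minus strand) had 1, 0 and 3 counts in WT and 0, 0, 1 and 6 in TET1 KO. Bex genes act as adaptors in signalling, and for both members the groups overlapped. Tceal3 (chrX:136590837-136668378, plus strand) had 0, 0 and 1 counts in WT and 0, 0, 2 and 4 in TET1 KO, and Tceal5 (chrX:136200948-136203884, minus strand) had 1 count in WT replicate 3 and 0 in the other 6 libraries. A count of 0 allows up to 3 counts in a library of this depth, so whether these 4 genes differed between the genotypes was not detectable. The floor covers counting error only.

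Levels can be compared between genes only per length. Per kilobase of annotated exons, Tceal8 and Tceal9 were the most abundant members in WT, at 21.3 ± 2.53 and 20.5 ± 3.43 CPM per kilobase (SD, n = 3), a difference within their spread. Bhlhb9 followed at 1.33, Bex4 at 0.383, Tceal1 at 0.253 and Bex2 at 0.079 CPM per kilobase, with Tceal5 and Tceal3 at or below 0.015. In TET1 KO the order changed: Tceal9 came first at 14.0 ± 0.358 CPM per kilobase, followed by Tceal8 at 4.21 ± 0.774 (SD, n = 4). Bex4, at 0.401 ± 0.287, Bhlhb9, at 0.369 ± 0.090, and Tceal1, at 0.262 ± 0.064 CPM per kilobase (SD, n = 4), came next. The difference between Bex4 and Bhlhb9 lay within their spread.

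The summed level of the 8 members was 39.8 to 47.7 CPM per kilobase in WT and 17.5 to 20.2 in TET1 KO. Tceal8 made up 43.1 to 52.5% of this sum in the WT livers and 17.4 to 23.3% in the TET1 KO livers. Tceal9 made up 41.8 to 53.1% in WT and 70.2 to 77.1% in TET1 KO, although its own level was lower there. The ranges of these shares did not overlap for either gene. Tceal8, chosen for its difference in this contrast, enters the sum and both shares, so these values are a description only.

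Ratios within a library need no scaling between libraries. There were 2.76, 3.10 and 2.01 Tceal8 counts per Tceal9 count in WT and 0.821, 0.782, 0.558 and 0.801 in TET1 KO, without overlap. For each Bhlhb9 count there were 16.4, 10.2 and 16.9 Tceal8 counts in WT and 10.7, 8.68, 10.9 and 9.62 in TET1 KO. The first ratio did not overlap between the genotypes. The second overlapped, although 2 of the 3 WT ratios lay above all 4 TET1 KO ratios. Both ratios contain Tceal8, which was chosen for its difference in this contrast, and are a description only.

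**Figure D2:**
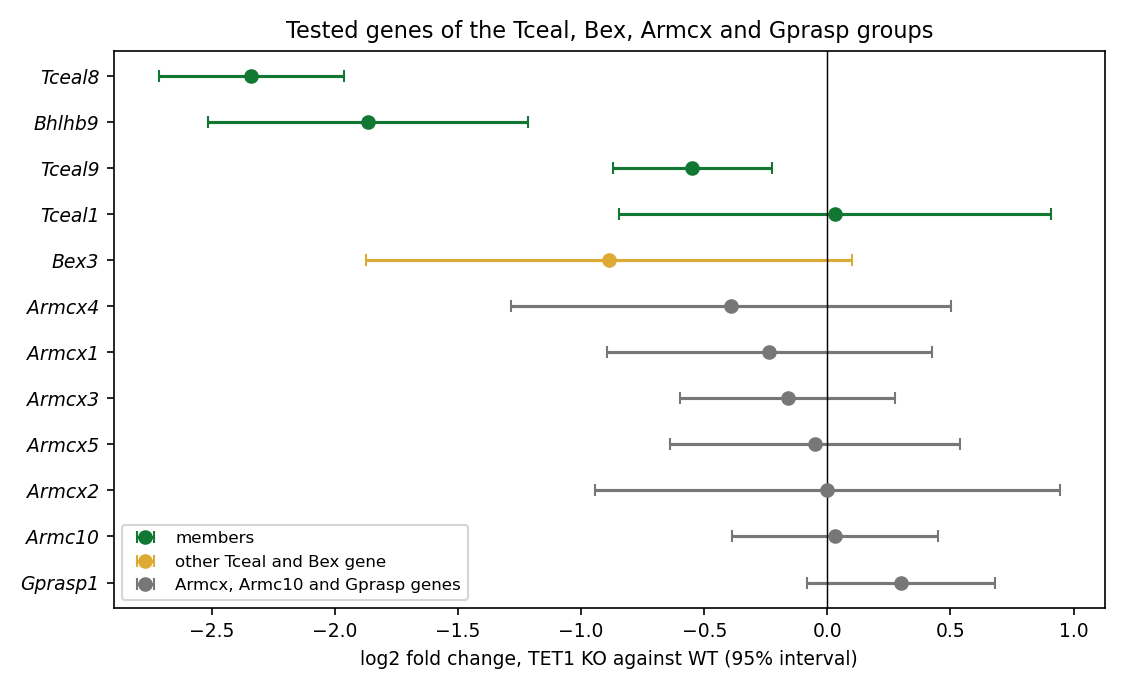
Log2 fold change of TET1 KO against WT (horizontal axis, with its 95% interval) for the tested members (green), the other tested Tceal or Bex gene (yellow) and the tested Armcx, Armc10 and Gprasp genes (grey). Tceal8 at -2.34 and Bhlhb9 at -1.87 lie apart from the 7 grey genes, which run from -0.39 to 0.30.

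Among the 5 other Tceal and Bex genes, Tceal6, Tceal7 and Bex6 had 0 counts in all 7 libraries and Bex1 had 1 or 2. Bex3, an adaptor of the neurotrophin receptor p75 in cell death signalling, was the only tested gene of the group. It had 14, 23 and 15 counts in WT and 7, 5, 4 and 16 in TET1 KO, where replicate 4 fell within the WT range. Its log2 fold change of -0.89 (SE 0.45, 95% interval -1.87 to 0.10) did not pass edgeR's test (adjusted p = 0.229). Neither edgeR nor DESeq2 called it, and its unadjusted p was 0.0738.

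The Armcx, Armc10 and Gprasp genes besides Bhlhb9 encode armadillo-repeat proteins and receptor-sorting proteins, and all but Armc10, on chromosome 5, are X-linked. Of these 9 genes, 7 were tested and 0 were called by edgeR, with 0 at an unadjusted p under 0.05 and 0 by DESeq2. The shares over all tested genes were 2.02%, 26.3% and 9.02%, so that 0 calls among so few genes is near the share called. The median log2 fold change of the 7 genes was -0.05, against 0.01 over all tested genes. The smallest p belonged to Gprasp1, which sorts internalised receptors to lysosomes, with a log2 fold change of 0.30 (SE 0.17, edgeR adjusted p = 0.288). The difference between Bhlhb9 and these related genes was not tested. Armcx6 and Gprasp2 did not pass the filter on low counts, with at most 16 and 10 counts in any library. Their TET1 KO to WT ratios of mean CPM were 0.421 and 2.10.

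The 29 transcription elongation genes examined, to which TFIIS itself belongs, gave 0 calls by edgeR, which called 2.02% of all tested genes. An unadjusted p under 0.05 was found for 9 of the 29, or 31.0%, against 26.3% of all tested genes, with 5 positive and 4 negative log2 fold changes among the 9. DESeq2 called 2 of the 29, against 9.02% of all genes it tested. Ell, an elongation factor that raises the rate of RNA polymerase II, had the smallest p, with a log2 fold change of 0.63 (SE 0.15, edgeR adjusted p = 0.0548, DESeq2 adjusted p = 0.00857). The other DESeq2 call, named after its values were seen, was Tcea2, a TFIIS gene best known from testis, at 1.56 (SE 0.41, edgeR adjusted p = 0.0692, DESeq2 adjusted p = 0.0437) with 5 to 27 counts per library. Of the other TFIIS genes, Tcea1, which is widely expressed, was at 0.04 (SE 0.12) and Tcea3 at 0.40 (SE 0.14, edgeR adjusted p = 0.108, DESeq2 adjusted p = 0.0881), with all 4 TET1 KO livers above the WT livers.

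Of 3 genes whose proteins are reported to bind Bex proteins (Ngfr, Lmo2 and Sirt2), 0 were called by edgeR or DESeq2 and 1 had an unadjusted p under 0.05. This was Sirt2, an NAD-dependent deacetylase, at 0.31 (SE 0.14, edgeR adjusted p = 0.174). Ngfr, the neurotrophin receptor p75, was at 0.05 and Lmo2, a blood cell transcription cofactor, at 0.30. An unadjusted p under 0.05 was found for 26.3% of all tested genes, while edgeR called 2.02% and DESeq2 9.02%.

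The position of the members was examined next. Distances are between first plus-strand bases, with negative values towards lower coordinates. The other 7 members lay within 1 Mb of Tceal8, from Bhlhb9 at -327 kb to Tceal1 at 539 kb. Bex4 was at -30.0 kb, Tceal5 at 32.0 kb and Tceal9 at 76.1 kb, so that the nearest members were either barely detected or less changed than the more distant Bhlhb9. RefSeq placed 92 other genes within 1 Mb, of which 72 were matched to the counts and 60 of these had at most 3 counts in any library. Of the 8 tested, 0 were called by edgeR or DESeq2 and 1 had an unadjusted p under 0.05. It was Morf4l2, a chromatin protein gene at 564 kb, named after its values were seen, at -0.42 (SE 0.17, edgeR adjusted p = 0.147). Among all tested genes edgeR called 2.02% and DESeq2 9.02%, and 26.3% had an unadjusted p under 0.05 by edgeR. The median of the 8 was 0.12, and windows of 0.5 Mb and 2 Mb also held 0 calls. Over the 443 tested X-linked genes, members included, 2.48% were called lower and 0.451% higher, with a median log2 fold change of -0.13. For all tested genes these shares were 1.15% and 0.874%, and the median was 0.01. Tceal8, chosen for its difference, and Bhlhb9 were among the X-linked genes called lower.

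**Figure D3:**
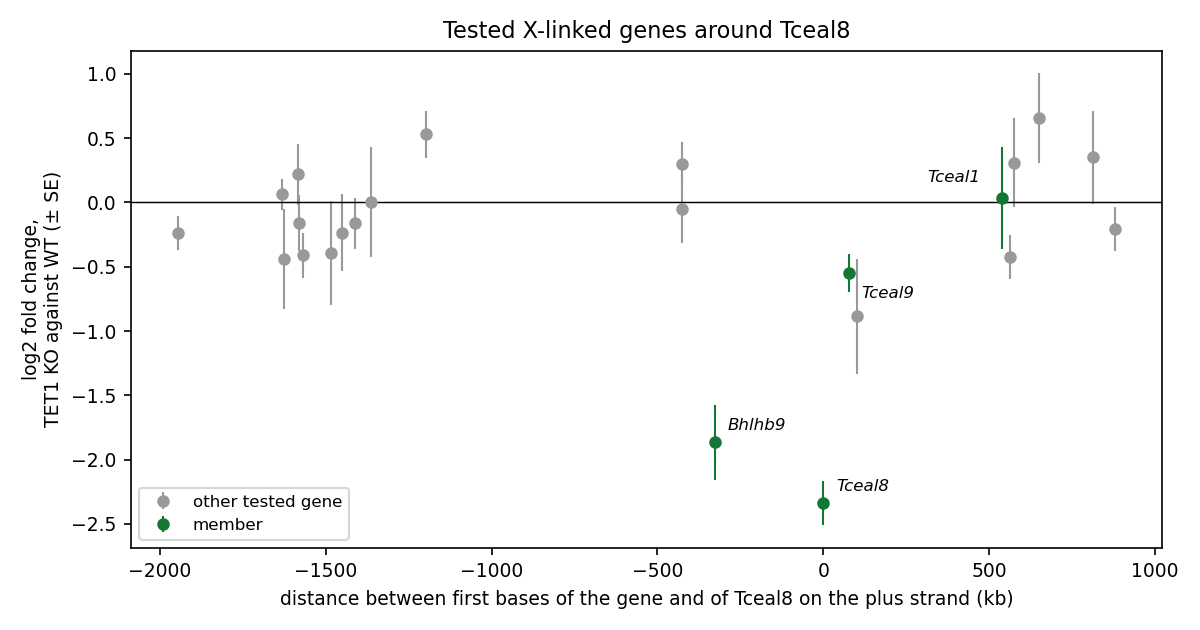
Log2 fold change of TET1 KO against WT (± SE) of the tested genes within 2 Mb of Tceal8, by the distance in kb between the first plus-strand base of each gene and that of Tceal8. Tceal8 and Bhlhb9 (green, at -2.34 and -1.87) lie below the tested neighbours (grey), whose values within 1 Mb run from -0.89 to 0.66.

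The genes most like Tceal8 across the 7 livers were not members. Likeness was the root mean square difference of log2 CPM after each gene was centred on its mean. The nearest were Gm19619 on chromosome 5 (0.214), Rad51b on chromosome 12 (0.222), Aqp4 on chromosome 18 (0.263), 9130409I23Rik on chromosome 1 (0.284) and Sybu on chromosome 15 (0.325). Rad51b acts in homologous recombination, Aqp4 is a water channel and Sybu links cargo to microtubule motors. Log2 fold changes of the first 4 ran from -2.47 for Rad51b to -2.32 for 9130409I23Rik. Sybu was at 0.094 CPM in TET1 KO, near the floor, and no fold change is given. Bhlhb9 ranked 9 by this measure (0.374), Tceal9 ranked 979 (0.928) and Tceal1 ranked 7636 (1.22). With 7 libraries of 2 genotypes the measure mostly orders genes by the size of their own genotype difference.

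Markers of other liver cell types were summed beside these results. Those of cholangiocytes were 29.9 to 38.0 CPM in WT and 46.3 to 68.5 CPM in TET1 KO, without overlap. Of the 5 tested cholangiocyte markers edgeR called 0, while 4 had an unadjusted p under 0.05, as did 26.3% of all tested genes, and DESeq2 called 2. Their median log2 fold change was 1.22. Stellate and fibroblast markers were 239 to 411 CPM in WT and 224 to 296 CPM in TET1 KO, endothelial markers 198 to 215 and 182 to 218 CPM, and Kupffer and macrophage markers 136 to 232 and 123 to 251 CPM, all overlapping. Of the 9 stellate and fibroblast markers edgeR called 0, while 4 had an unadjusted p under 0.05 and DESeq2 called 4, with a median log2 fold change of -0.39. An unadjusted p under 0.05 was found for 2 of 8 endothelial, 2 of 9 hepatocyte and 0 of 7 Kupffer and macrophage markers. DESeq2 called 1, 1 and 0 of these. Neuronal and Schwann cell markers, of interest because many members are known from the nervous system, were 6.13 to 8.91 CPM in WT and 6.95 to 8.85 CPM in TET1 KO, with Snap25 at 0 counts throughout. T and NK cell markers (2.81 to 4.41 and 3.94 to 7.96 CPM), B cell markers (2.45 to 5.56 and 4.87 to 10.5 CPM) and mesothelial markers (0.441 to 7.30 and 1.06 to 5.94 CPM) overlapped as well. The median log2 fold change was 1.13 for the 3 tested T and NK cell markers, of which 1 had an unadjusted p under 0.05, and 0.78 for the 5 B cell markers, of which 2 had. Beside all these counts, 26.3% of all tested genes had an unadjusted p under 0.05 and DESeq2 called 9.02% of the genes it tested. The part of these cells in the levels of Tceal8, Bhlhb9 and Tceal9 was not tested.

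**Figure D4:**
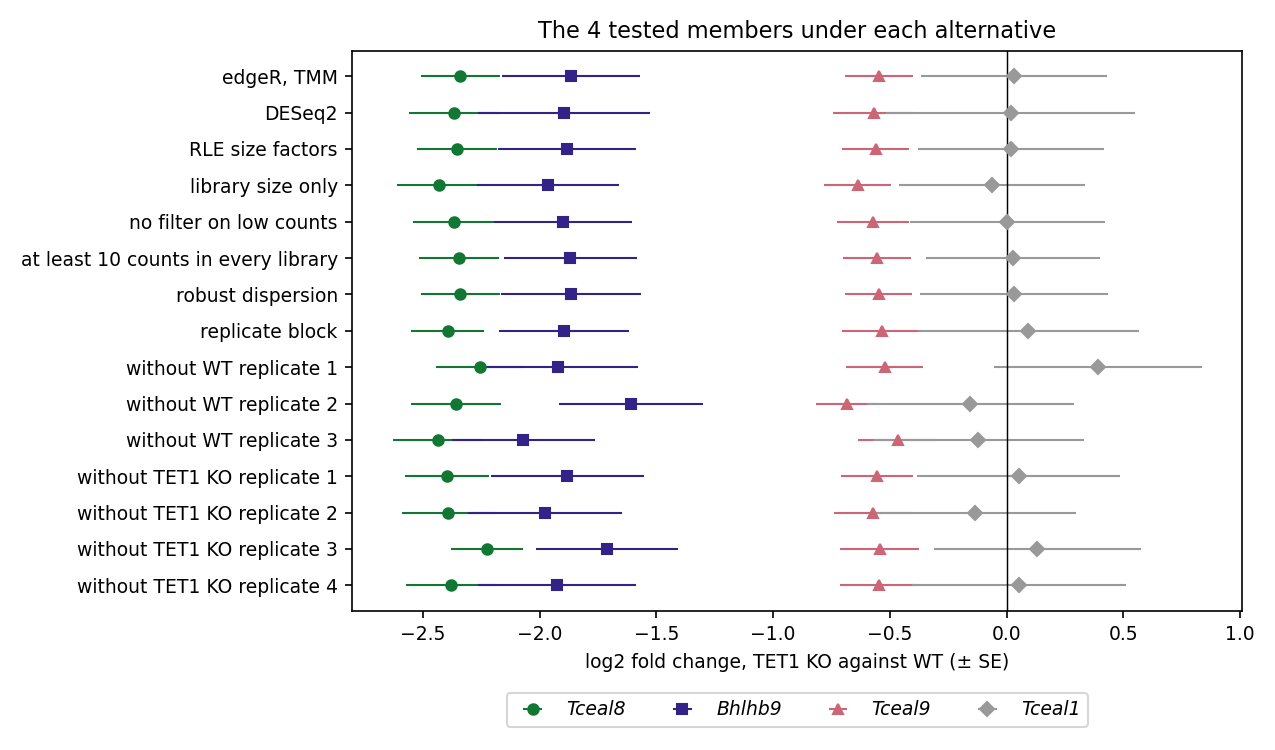
Log2 fold change of TET1 KO against WT (horizontal axis, ± SE) of the 4 tested members under the reported fit (top) and 14 alternatives. Tceal8 stayed between -2.44 and -2.23 and Bhlhb9 between -2.07 and -1.61, Tceal9 stayed negative, and Tceal1 crossed 0.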

How the data were processed

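Livers of 3 WT and 4 TET1 KO male mice on HFD were profiled by RNA-Seq with a stranded (dUTP) kit after poly(A) selection or rRNA removal. Per the submitters' processing notes, the authors used Trimmomatic 0.36, GSNAP and featureCounts 1.5.3 with GRCm38, and deposited raw counts per gene. The strand and multimapping settings and the annotation release were not given in the sources used here. Where reads of a gene and its antisense partner were counted without strand they cannot be told apart.

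Libraries were joined by Ensembl ID, and 5 repeated entries per library were dropped. Of 51426 genes, 14754 passed filterByExpr. TMM scaling and the quasi-likelihood test of edgeR 4.0.16 (R 4.3.3) were applied to genotype alone, with Benjamini-Hochberg adjustment over all tested genes, and genes at adjusted p under 0.05 were called. CPM (counts per 1000000) were TMM-scaled, with a prior count of 2 on the log2 scale. The script was tested on simulated data. Samples were grouped by the labels, which do not describe the mice further, so p-values measure only the spread between these samples. Counts ranged from 15005277 to 22746138 per library, and genes with few counts have little precision.

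The members and gene lists were chosen with earlier results of these data known. Named genes were the members, the called genes of each list or else that with the smallest p, the called neighbours, and the 5 nearest profiles. Tcea1, Tcea2, Tcea3, the elongation genes with a library apart from the rest, Ngfr, Lmo2, Morf4l2, Armcx6 and Gprasp2 were named besides, after their values were seen. Positions and upstream sequences came from RefSeq (GRCm38.p6), found for all 8 members. Exon lengths and coding sequences came from GENCODE M1 (NCBIM37), matched by Ensembl ID, without its coordinates. The hepatocyte marker Tf was not matched by name. Alternatives were DESeq2 1.42.0, other scalings and filters, robust dispersions, a replicate block and leaving out each library. Same-numbered WT and TET1 KO libraries had correlations of 0.21, -0.12 and -0.10 in their deviations from the group means, so the numbers were not taken as pairs.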

Additional observations from a re-analysis of the deposited data

Results flagged for a closer look

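Tceal8 in TET1 KO was singled out because replicate 3, at 7.83 CPM, lay apart from the other TET1 KO livers (11.6 to 12.1 CPM). Its gap to the nearest library was 0.886 of the group's range, above Dixon's 95% critical value for 4 samples. The same value was passed by 6 elongation genes. TET1 KO replicate 1 was the highest of its group for Rtf1 (0.917), Ell3 (0.917), Supt16 (0.877) and Nelfcd (0.868), replicate 2 the highest for Ell2 (0.872), and replicate 3 the lowest for Ssrp1 (0.936). The summed T and NK cell markers in TET1 KO had a gap of 0.836, with replicate 2 the highest. Of 62 measures examined in this way, about 3.1 would be expected to exceed the value by chance, and 8 did. The cause was not tested for any of them.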

How the results depend on the processing

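The reported count of 298 called genes was 1326 by DESeq2, 592 with no filter on low counts, 1327 with the replicate number as a block, and 37 (without WT replicate 2) to 891 (without TET1 KO replicate 4) when single libraries were left out, with 187, 104 and 79 without TET1 KO replicates 1, 2 and 3. Of the members other than Tceal8, 1 was called as reported, 2 (Bhlhb9 and Tceal9) by DESeq2 and with library size only (which called 419 genes in all, 312 of them lower), and 0 to 1 when single libraries were left out, 0 being without WT replicate 2, which ended the call of Bhlhb9 (adjusted p = 0.0905 by edgeR, range over all its alternatives 3.99e-05 to 0.0905). Adjusted p for Tceal9 ranged from 0.0197 to 0.166, and was 0.0460 with library size only. The count of called elongation genes, 0 as reported, was 2 by DESeq2, 1 with robust dispersions, 2 with the replicate block, and 0 to 1 when single libraries were left out. Tceal1 had a log2 fold change of -0.061 with library size only and -0.16 to 0.39 when single libraries were left out. Replicate 4 exists only in TET1 KO, so in the block fit that library did not inform the genotype difference. The block left the log2 fold change of Tceal8 at -2.39. The counts for the other Tceal and Bex genes, Armcx and Gprasp genes, Bex partners and X-linked neighbours were 0 under every alternative run. Library size alone moved the median of all genes from 0.01 to -0.08. The cause was not tested for any of these changes. Depth limits Bex2, Bex4, Tceal3 and Tceal5, at most 10 counts each.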
